A study of Mus musculus with 6 samples.

Results

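The reticulons and their partners that give the endoplasmic reticulum (ER) its tubular form were followed in mouse liver with and without Nogo, the product of the reticulon gene Rtn4. The group held 10 genes of the 54232 in the count table, taken by symbol: the reticulons Rtn1, Rtn2, Rtn3 and Rtn4, the REEP genes Reep3, Reep5 and Reep6, the atlastins Atl2 and Atl3, and Arl6ip1. Gene expression was measured by RNA sequencing of whole liver from 3 Nogo-/- mice and 3 wild-type (WT) littermates, all 8 weeks old and fed normal chow. Strain, sex, the exons removed from Rtn4 and the cells in which it was removed are not stated in the labels. Libraries are named by the numbers in their labels, Nogo-/- 1, 2 and 4 and WT 2, 4 and 11. The study's title places the comparison in insulin signalling.

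Reticulons, REEPs and Arl6ip1 carry paired hydrophobic hairpins that wedge into the outer leaflet of the ER membrane and bend it into tubules. Atlastins are membrane-anchored GTPases that fuse tubules into the 3-way junctions of the network. In hepatocytes the smooth, tubular ER holds much of the machinery of lipid, steroid and drug metabolism, beside extensive rough sheets that make plasma proteins.

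Totals per library were 17654412 to 18118811 counts in Nogo-/- and 17568223 to 20902369 counts in WT. Levels are in CPM, the counts scaled to a common library size with TMM factors. A floor of 3 counts stood at 0.139 to 0.199 CPM, which covers counting error only. The hepatocyte markers Alb, Ttr, Apoa1, Cps1 and Cyp3a11 summed to 71416 to 102446 CPM in Nogo-/- and 80794 to 97258 CPM in WT, most of it from Alb, as in hepatocyte-rich tissue, and 1 of the 5, Cps1, fell. Cyp3a11 was lower (log2 fold change −0.78) and Apoa1 higher (0.61) in every Nogo-/- library than in any WT library, but neither was called. Such a lack of overlap was seen in 38.9% of all tested genes. In Alb and Ttr the groups overlapped. Mitochondrially encoded genes took 28.6%, 19.7% and 11.8% of the counts in Nogo-/- 1, 2 and 4 and 6.17% to 6.90% in WT. The share did not overlap between the genotypes, so the fits below with it as a covariate cannot separate it from genotype. A gene was called at an adjusted p under 0.05 (edgeR quasi-likelihood test, Benjamini-Hochberg over 13304 tested genes). In all, 2268 genes (17.0%) were called, 1165 higher (8.76%) and 1103 lower (8.29%) in Nogo-/-, and with library totals in place of TMM 690 were higher and 1566 lower while the median of all genes moved to −0.16 on the log2 scale. The count was 804, 979 and 4046 without Nogo-/- 1, 2 and 4 and 827 and 630 without WT 2 and 4.

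The promoter windows of 4 genes are shown first, because they belong to the deleted gene (Rtn4), to the atlastins whose levels were lower in Nogo-/- liver (Atl3 and Atl2), and to the neighbour of Atl3 that was not called (Rtn3). Each runs from 250 bases before to 50 bases after the RefSeq start (GRCm38.p6, the mm10 assembly), 5′ to 3′ on the strand of the gene. Capitals mark the CCAAT box (CCAAT) and the GC box (GGGCGG) on either strand.
Rtn4, chr11:29692648-29692947, plus strand: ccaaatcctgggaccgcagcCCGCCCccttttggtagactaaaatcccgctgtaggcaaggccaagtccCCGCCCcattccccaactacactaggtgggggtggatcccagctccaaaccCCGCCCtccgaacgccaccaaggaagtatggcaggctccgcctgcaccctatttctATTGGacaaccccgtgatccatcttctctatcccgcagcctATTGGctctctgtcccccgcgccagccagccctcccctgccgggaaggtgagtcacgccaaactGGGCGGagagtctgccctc
Atl3, chr19:7494188-7494487, plus strand: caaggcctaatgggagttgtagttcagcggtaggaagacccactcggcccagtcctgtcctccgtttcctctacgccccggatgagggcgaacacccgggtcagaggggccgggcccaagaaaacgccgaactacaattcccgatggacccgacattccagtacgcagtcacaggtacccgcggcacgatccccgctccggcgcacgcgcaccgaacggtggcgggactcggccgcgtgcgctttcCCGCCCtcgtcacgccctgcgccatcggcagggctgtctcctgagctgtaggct
Atl2, chr17:79896074-79896373, minus strand: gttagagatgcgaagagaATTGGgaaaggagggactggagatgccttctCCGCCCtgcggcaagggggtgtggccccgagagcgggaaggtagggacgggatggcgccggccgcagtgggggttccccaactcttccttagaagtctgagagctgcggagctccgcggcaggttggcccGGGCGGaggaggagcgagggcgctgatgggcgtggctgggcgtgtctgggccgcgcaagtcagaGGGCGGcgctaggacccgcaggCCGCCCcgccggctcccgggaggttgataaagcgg
Rtn3, chr19:7483242-7483541, minus strand: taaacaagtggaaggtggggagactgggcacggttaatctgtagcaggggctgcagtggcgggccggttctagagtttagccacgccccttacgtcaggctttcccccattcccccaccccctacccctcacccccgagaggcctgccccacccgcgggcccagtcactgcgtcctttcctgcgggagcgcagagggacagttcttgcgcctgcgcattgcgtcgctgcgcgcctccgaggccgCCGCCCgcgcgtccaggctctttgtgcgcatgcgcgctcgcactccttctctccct
The windows of Rtn4, Atl3, Atl2 and Rtn3 held 2, 0, 1 and 0 CCAAT boxes and 4, 1, 4 and 1 GC boxes. Of 32851 windows of this length, 37.4% held a CCAAT box and 35.7% a GC box, and these motifs did not overlap each other in the sequences above. The GC content of the 4 windows shown was 62.3% in Rtn4, 66.0% in Atl3, 69.0% in Atl2 and 67.0% in Rtn3, against a median of 52.7% over all windows. The ER stress element (CCAAT and CCACG with 9 bases between them, so that it contains the CCAAT box) and the unfolded protein response element (TGACGTGG) were searched on both strands. Neither was found in the 11 windows that RefSeq gave for 7 of the 10 genes, and 0.12% and 0.68% of all windows held them. No window was matched for Reep3, Reep5 or Reep6.

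Rtn4 was the gene with the largest difference in the group. It encodes the Nogo proteins, which shape ER tubules and, in the nervous system, restrain axon growth. Rtn4 (ENSMUSG00000020458, chromosome 11, 29692947 to 29744331, plus strand, protein coding) had 70, 153 and 78 counts in Nogo-/- 1, 2 and 4, against 852, 991 and 1205 counts in WT 2, 4 and 11. In CPM these were 4.63, 8.22 and 4.69 in Nogo-/- and 40.5, 52.8 and 56.0 in WT. Every Nogo-/- library lay below every WT library, as the labels require, and Nogo-/- 2 was the highest of its group. The means were 5.85 ± 2.05 CPM in Nogo-/- and 49.8 ± 8.20 CPM in WT (SD, n = 3 each), so that 11.8% of the WT level was left (log2 fold change −3.08, 95% interval −3.66 to −2.50, edgeR adjusted p = 0.00101). Since the gene was deleted, this value checks the labels and is not a finding.

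The counts per gene do not show which exons the remaining Rtn4 reads came from. The annotation (GENCODE M21) lists 10 transcripts of Rtn4, 6 of them coding, which begin at or near 3 RefSeq start sites. Of the coding transcripts, 4 begin within 50 bases of the first site at 29692898, 1 begins at 29693774, and 1 begins at 29718563. The 3′ end of Rtn4 also overlaps Eml6, a microtubule-binding protein gene on the opposite strand, over 1284 exon bases or 18.4% of the Rtn4 exons. No label says whether the counting used strand, so reads in that overlap cannot be told apart. Eml6 itself had 4, 2 and 3 counts in Nogo-/- and 9, 8 and 11 in WT, fewer than the counts left on Rtn4 in any library.

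**Figure D1:**
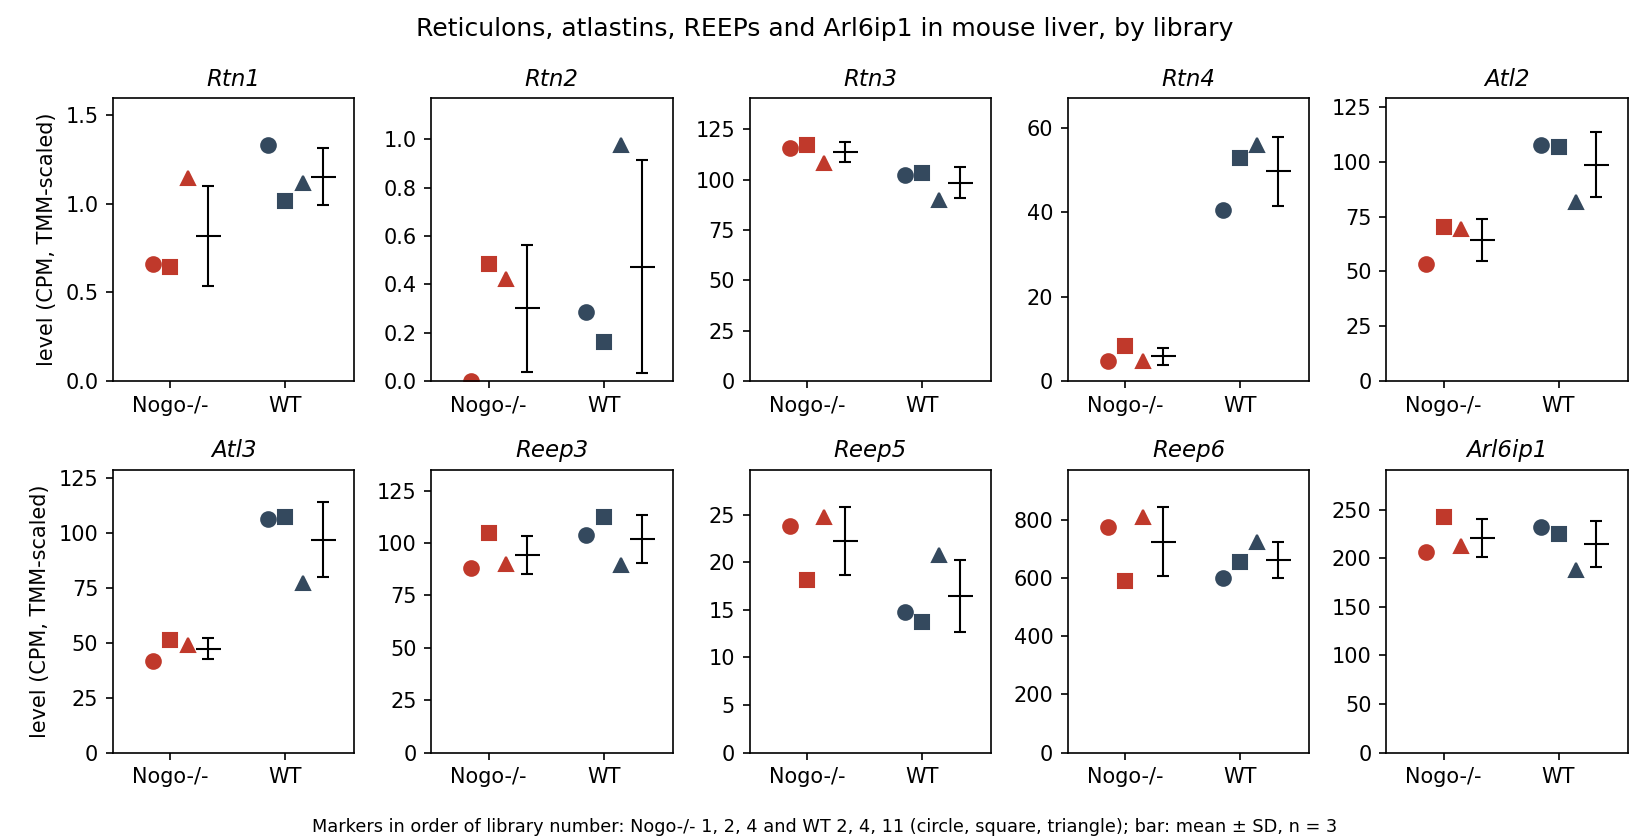
Level of each of the 10 genes in CPM after TMM scaling (vertical axes, each starting at 0) in the 3 Nogo-/- libraries (red) and the 3 WT libraries (dark blue), with mean ± SD. The Nogo-/- points of Rtn4, Atl3 and Atl2 lie below all WT points and those of Rtn3 lie above them, while the groups overlap in Rtn1, Rtn2, Reep3, Reep5, Reep6 and Arl6ip1.

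Of the 9 genes that passed the filter on low counts, Rtn4 and Atl3 fell and 0 rose, where 8.29% of all tested genes were called lower and 8.76% higher. With 2 of 9 called against 17.0% of all tested genes, and with Rtn4 being the deleted gene, the count does not set the group apart. The median log2 fold change of the 9 genes, the deleted Rtn4 among them, was −0.11, and that of all tested genes was 0.01. The groups did not overlap in 4 of the 9, Rtn3, Rtn4, Atl2 and Atl3, where 38.9% of all tested genes showed no overlap. In Rtn4, Atl2 and Atl3 the Nogo-/- libraries were the lower ones (19.2% of all tested genes), and in Rtn3 the higher ones (19.7%). The deletion fixed the place of Rtn4, so only Rtn3, Atl2 and Atl3 can be set against these shares. Their number does not set the group apart. In whole tissue, fewer cells of a type and less RNA per cell cannot be told apart. The labels describe livers of mice and do not say more of how the samples of a genotype are related, so a p-value reflects the scatter among these 6 livers.

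Among the remaining reticulons, Rtn3 carried nearly all of the signal and did not pass the test. Rtn3 is broadly expressed and serves as a receptor for the autophagy of ER tubules. Its level was 116, 117 and 108 CPM in Nogo-/- 1, 2 and 4 and 102, 104 and 90.0 CPM in WT 2, 4 and 11. All 3 Nogo-/- values were above all 3 WT values, but by little. The means were 114 ± 4.83 CPM in Nogo-/- and 98.6 ± 7.51 CPM in WT (SD, n = 3 each). The log2 fold change was 0.21 with a 95% interval of −0.15 to 0.56 (edgeR adjusted p = 0.402). The interval ends below a 2-fold rise.

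Rtn1, a reticulon known from neurons and neuroendocrine cells, was near the lower end of what these libraries measure. It had 10, 12 and 19 counts in Nogo-/- and 28, 19 and 24 counts in WT, or 0.817 ± 0.283 CPM in Nogo-/- and 1.15 ± 0.162 CPM in WT (SD, n = 3 each). The highest Nogo-/- value lay inside the WT range, and the log2 fold change of −0.50 did not pass (95% interval −1.39 to 0.39, edgeR adjusted p = 0.416). Rtn2, known from muscle and from a hereditary spastic paraplegia, had 0, 9 and 7 counts in Nogo-/- and 6, 3 and 21 counts in WT. It was the member of the group that the filter removed, so it has no test, and at this depth no difference between the groups was detectable.

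Per length, the reticulon transcripts of Nogo-/- liver were almost entirely Rtn3. CPM was divided by the length of the union of a gene's annotated exons in kb, which allows genes to be set side by side. On this scale Rtn4 made up 2.78%, 4.75% and 2.98% of the reticulon sum in Nogo-/- 1, 2 and 4, against 21.9%, 26.6% and 30.4% in WT 2, 4 and 11. Rtn3 made up 95.5 ± 1.18% in Nogo-/- and 72.5 ± 4.47% in WT, and Rtn1 with Rtn2 filled the small rest. The deletion of Rtn4 by itself lowers its share and raises that of Rtn3, whose own level was not called. These shares are therefore no separate finding. The full exon length of Rtn4 was used in both genotypes, although the exons removed are not stated. The summed level of all reticulons was 23.7 ± 1.11 in Nogo-/- and 27.1 ± 1.16 in WT (CPM per kb of exon, SD, n = 3 each). Without Rtn4 the sum was 23.2, 23.6 and 21.9 in Nogo-/- and 20.7, 20.9 and 18.4 in WT on the same scale. These sums are descriptions without a test, and the sum with Rtn4 includes the effect of its deletion. The Rtn4 share depends on the length used, and with the longest coding transcript it was 5.16% in Nogo-/- and 34.7% in WT.

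**Figure D2:**
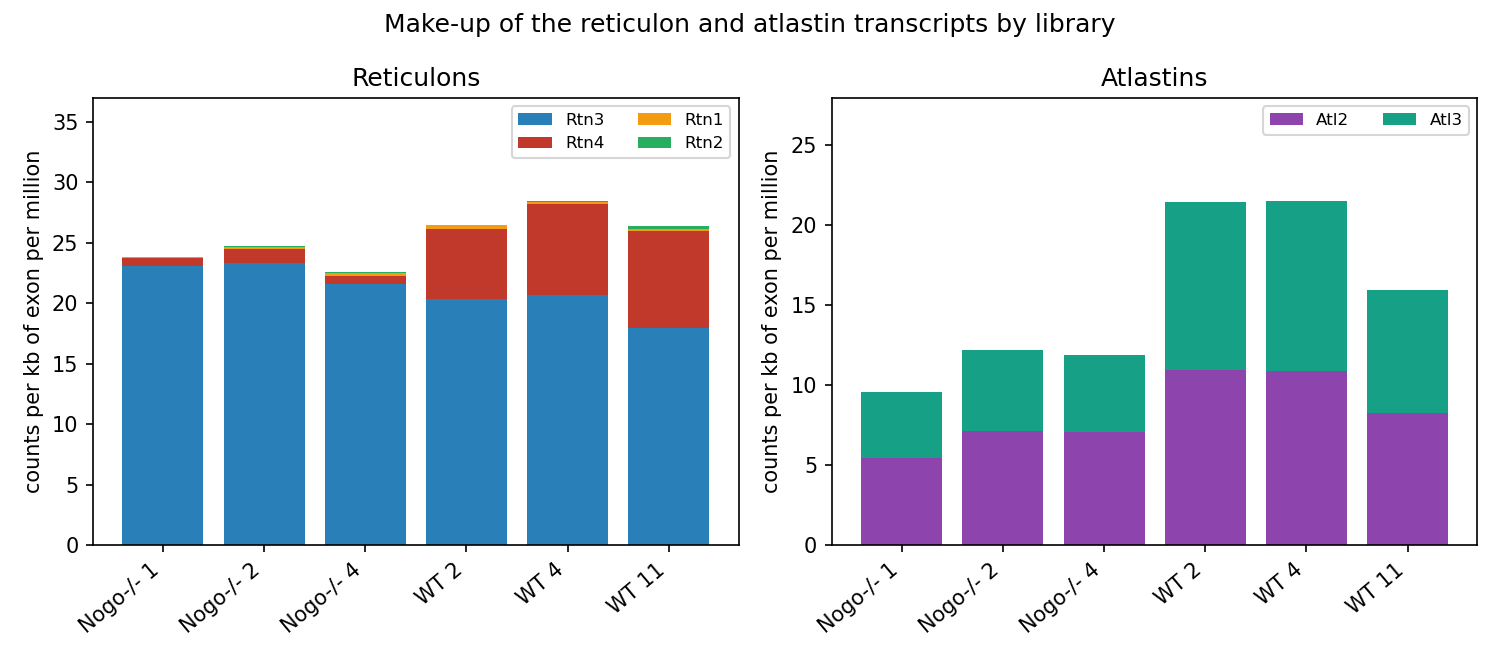
CPM per kb of exon in each library (vertical axes from 0), stacked by gene, for the 4 reticulons (left) and the 2 atlastins (right), with the Nogo-/- libraries on the left of each panel. The Rtn4 segment, that of the deleted gene, is 2.78% to 4.75% of the reticulon bar in Nogo-/- and 21.9% to 30.4% in WT. The summed atlastin bar is lower in every Nogo-/- library than in any WT library.

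Atl3 fell in Nogo-/- liver to 48.7% of its WT level. Atl3 fuses ER tubules and also acts as an ER-phagy receptor. Its level was 41.8, 51.1 and 48.9 CPM in Nogo-/- 1, 2 and 4 and 106, 107 and 77.1 CPM in WT 2, 4 and 11, from 632 to 951 counts in Nogo-/- and 1661 to 2237 counts in WT. The groups were far apart, and the WT library nearest to Nogo-/- was WT 11. The means were 47.3 ± 4.81 CPM in Nogo-/- and 96.9 ± 17.2 CPM in WT (SD, n = 3 each), and the log2 fold change was −1.04 (95% interval −1.46 to −0.61, edgeR adjusted p = 0.00935). The call held in each of the 6 fits that left out 1 library. It was lost with Nogo-/- 4 alone against WT (log2 fold change −0.99, adjusted p = 0.135), where the spread comes from WT only, and with the mitochondrial share as a covariate (−0.85, adjusted p = 0.539), where Rtn4 did not pass either (−3.03, adjusted p = 0.189). Since the mitochondrial share did not overlap between the genotypes, the covariate fit cannot separate it from genotype. The part of the share in the Atl3 level was not tested beyond this.

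Atl2, the other atlastin measured in the group, missed the threshold narrowly. It is broadly expressed and fuses ER tubules as Atl3 does. Its level was 53.4, 70.1 and 69.5 CPM in Nogo-/- and 108, 107 and 81.6 CPM in WT, again with WT 11 the lowest of its group. The groups did not overlap. The means were 64.4 ± 9.46 CPM in Nogo-/- and 98.7 ± 14.9 CPM in WT (SD, n = 3 each), and the log2 fold change was −0.62 (95% interval −1.04 to −0.19, edgeR adjusted p = 0.0502). With a covariate for the mitochondrial share its log2 fold change was −0.31 (adjusted p = 0.778), and with Nogo-/- 4 alone against WT it was −0.51 (0.281). Atl2 passed in 6 of 17 alternatives, among them DESeq2 (adjusted p = 0.0283), limma-voom (0.0446), library totals (0.0437) and the fits without Nogo-/- 4 (0.0273) and without WT 11 (0.0434). Over all 17 its adjusted p lay between 0.0189 and 0.778.

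**Figure D3:**
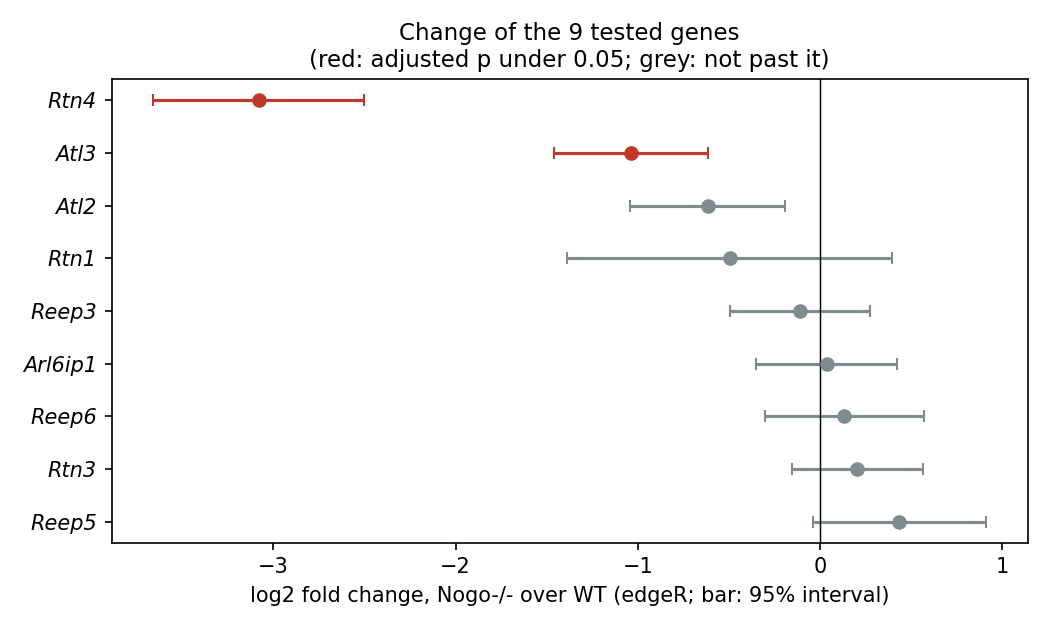
Log2 fold change, Nogo-/- over WT, of the 9 tested genes with its 95% interval (horizontal axis), ordered by size and with called genes in red. The intervals of Rtn4, Atl3 and Atl2 lie below 0, and those of the other 6 genes cross it.

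**Figure D4:**
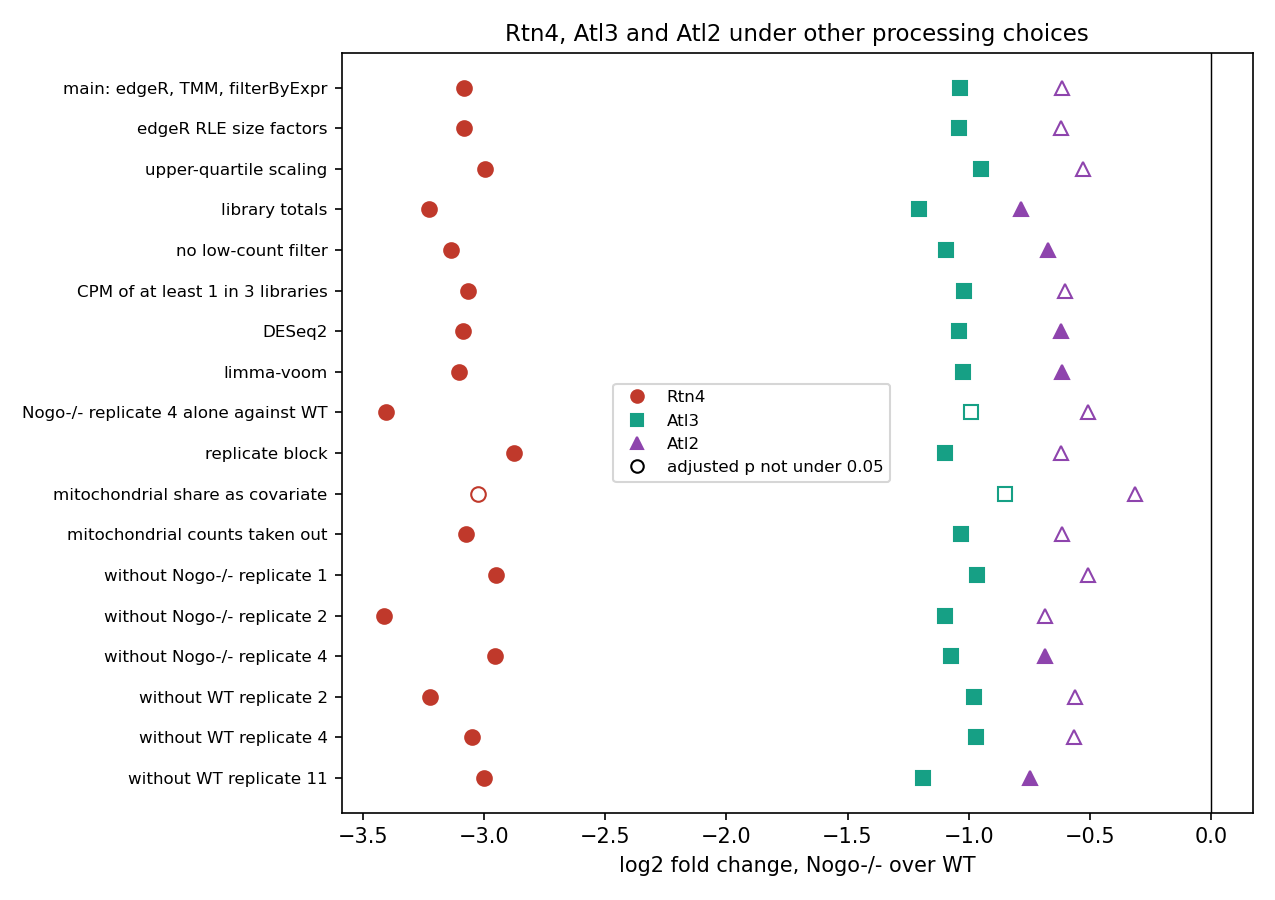
Log2 fold change, Nogo-/- over WT (horizontal axis), of Rtn4 (circles), Atl3 (squares) and Atl2 (triangles) under the edgeR fit reported and 17 alternatives (rows), with open symbols where the adjusted p is not under 0.05. Atl3 stays between −1.21 and −0.85 and Rtn4 between −3.41 and −2.88, while Atl2 is filled in 6 of the 17 alternatives.

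Ratios of counts within a library need no scaling between libraries and were used to compare genes with each other. The ratio of Atl3 to Rtn3 was 0.362, 0.436 and 0.452 in Nogo-/- 1, 2 and 4 and 1.04, 1.04 and 0.858 in WT 2, 4 and 11. The ratio of Atl3 to Atl2 was 0.783, 0.728 and 0.703 in Nogo-/- and 0.987, 1.004 and 0.946 in WT. Thus Atl3 counts were lower relative to both genes in every Nogo-/- library. The ratio of Atl2 to Rtn3 was 0.568 ± 0.0943 in Nogo-/- and 0.997 ± 0.0790 in WT (SD, n = 3 each). Reep5 to Reep6 gave 0.0307, 0.0308 and 0.0306 in Nogo-/- and 0.0245, 0.0210 and 0.0287 in WT, with nearly the same value in all Nogo-/- libraries. Rtn4 to Rtn3 gave 0.0512 ± 0.0165 in Nogo-/- and 0.509 ± 0.113 in WT, a difference that the deletion of Rtn4 fixed in advance. For each of these 5 ratios the groups did not overlap, and the two-sided exact permutation p was 0.1 (0.1 after Benjamini-Hochberg adjustment), the smallest that 3 against 3 libraries allow. The ratios were formed with earlier results known and mostly from genes whose own groups did not overlap, as in 38.9% of all tested genes, so they describe the levels above and are no separate support for them.

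The REEP genes, whose products share a hairpin fold with yeast Yop1, did not pass the test. Reep6, known for membrane traffic in photoreceptors, had the highest level of the group at 774, 588 and 810 CPM in Nogo-/- and 600, 656 and 724 CPM in WT. The groups overlapped, with means of 724 ± 119 CPM in Nogo-/- and 660 ± 61.8 CPM in WT (SD, n = 3 each). Its log2 fold change was 0.13 (95% interval −0.30 to 0.57, edgeR adjusted p = 0.665), and the direction turned to −0.0545 with library totals.

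Reep5, a tubule-shaping protein of broad expression, was measured at 23.8, 18.1 and 24.8 CPM in Nogo-/- and 14.7, 13.8 and 20.8 CPM in WT. WT 11 lay above Nogo-/- 2, and the log2 fold change of 0.44 did not pass (95% interval −0.04 to 0.91, edgeR adjusted p = 0.180). Reep3, which in human cells helps to clear ER membrane from chromosomes in mitosis, had 88.2, 105 and 89.8 CPM in Nogo-/- and 104, 113 and 89.5 CPM in WT. Its groups overlapped widely (log2 fold change −0.11, 95% interval −0.50 to 0.27, edgeR adjusted p = 0.684). An antisense transcript, Gm31763, covers 11.3% of the Reep3 exons, so part of its counts cannot be assigned by strand.

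Arl6ip1, a reticulon-like protein that binds the small GTPase Arl6, had 207, 243 and 212 CPM in Nogo-/- and 232, 225 and 188 CPM in WT. The 2 groups covered nearly the same range. The log2 fold change was 0.04 (95% interval −0.35 to 0.42, edgeR adjusted p = 0.902), and it turned negative in 6 of 17 alternatives, including library totals (−0.13). None of the 50-base stretches in its transcripts occurs in another annotated gene, and the same holds for Rtn1, Rtn3, Reep5 and Reep6.

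Set side by side per length, the order of the genes was led by Reep6 and Arl6ip1 in both genotypes. In Nogo-/- the levels in CPM per kb of exon were 289 ± 47.6 for Reep6, 88.9 ± 7.80 for Arl6ip1, 22.6 ± 0.961 for Rtn3 and 11.4 ± 1.12 for Reep3. They were followed by Reep5 at 7.05 ± 1.14, Atl2 at 6.54 ± 0.961, Atl3 at 4.68 ± 0.477 and Rtn4 at 0.836 ± 0.293. In WT they were 263 ± 24.6 for Reep6, 86.7 ± 9.56 for Arl6ip1, 19.6 ± 1.496 for Rtn3 and 12.3 ± 1.40 for Reep3. Then came Atl2 at 10.03 ± 1.51, Atl3 at 9.60 ± 1.70, Rtn4 at 7.12 ± 1.17 and Reep5 at 5.21 ± 1.204 (SD, n = 3 each throughout). Rtn1 and Rtn2 closed both orders at 0.164 and 0.0658 in Nogo-/- and 0.231 and 0.103 in WT on the same scale. In Nogo-/- the ranges of Reep5 and Atl2 overlapped. In WT the ranges of Reep3 and Atl2, Atl2 and Atl3, Atl3 and Rtn4, Rtn4 and Reep5, and Rtn1 and Rtn2 overlapped, so the order within these pairs is not separated by these livers. With the longest coding transcript as length, Atl2 moved up to 17.8 in Nogo-/- and 27.3 in WT.

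Within each genotype the genes did not vary together as 1 block. In Nogo-/-, library 2 had the highest level of 7 of the 10 genes (Rtn2, Rtn3, Rtn4, Reep3, Atl2, Atl3 and Arl6ip1) and the lowest of the other 3 (Rtn1, Reep5 and Reep6). In WT, library 11 had the lowest level of 5 genes (Rtn3, Reep3, Atl2, Atl3 and Arl6ip1) and the highest of 4 (Rtn2, Rtn4, Reep5 and Reep6). Reep5 and Reep6 thus sat at the same end as each other in both of these libraries, and opposite to Reep3, Atl2, Atl3 and Arl6ip1.

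Atl3 and Rtn3 lie next to each other on chromosome 19 and point away from each other. Atl3 (ENSMUSG00000024759, 7494040 to 7539674, plus strand) and Rtn3 (ENSMUSG00000024758, 7425901 to 7483281, minus strand) are both protein coding, and their annotated starts are 10759 bases apart (mm10). Atl3 fell while Rtn3 was not called, and the ratio of their counts within a library is given above. The gene on the far side of Rtn3, 2700081O15Rik, had 3.97 CPM in Nogo-/- and 2.85 CPM in WT (log2 fold change 0.47, edgeR adjusted p = 0.361). The gene beyond Atl3, the phospholipase Pla2g16, had 6.25 CPM in Nogo-/- and 7.97 CPM in WT (−0.35, edgeR adjusted p = 0.341).

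Within 500 kb of the Rtn4 start lie 8 other protein-coding genes, of which 5 were tested, 1 rose and 0 fell, where 8.76% of all tested genes were called higher and 8.29% lower, so 1 call among 5 does not set the locus apart. The gene that rose was Rps27a, a ribosomal protein fused to ubiquitin, with 160, 217 and 122 CPM in Nogo-/- and 98.4, 73.1 and 84.7 CPM in WT (log2 fold change 0.96 ± 0.23 SE, edgeR adjusted p = 0.0210). Its groups did not overlap. Its value is uncertain, because 26.3% of the 50-base stretches in its transcripts also occur in other annotated genes, pseudogenes among them. The call held in 10 of 17 alternatives. Among the fits that lost it were those without Nogo-/- 1 or 2, without WT 4 or 11 (adjusted p = 0.0564 to 0.0988) and with library totals (0.0583). Over all 17 its log2 fold change lay between 0.51 and 1.13, and the highest adjusted p was 0.646. The other 4 tested genes, Cfap36, Ccdc88a, Prorsd1 and Mtif2, had log2 fold changes from −0.20 to 0.01 (edgeR adjusted p = 0.736 to 0.972).

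Of the 16 direct neighbours of the other members, 11 were tested, 1 rose and 1 fell, a share close to the 17.0% of all tested genes, and both were named after their values were seen. Jmjd1c, a histone demethylase gene whose start lies 820 bases from that of Reep3 on the opposite strand, fell to 2.57 CPM in Nogo-/- against 8.26 CPM in WT (log2 fold change −1.69 ± 0.29 SE, edgeR adjusted p = 0.00811). Pcsk4, a proprotein convertase gene whose start lies 455 bases from that of Reep6 on the opposite strand, rose to 56.7 CPM in Nogo-/- against 23.5 CPM in WT (1.27 ± 0.24 SE, edgeR adjusted p = 0.00954). Both calls held in each of the 6 fits that left out 1 library, and both were lost in 2 other fits. With Nogo-/- 4 alone the log2 fold change was −1.57 for Jmjd1c (adjusted p = 0.149) and 1.13 for Pcsk4 (0.143), and with the mitochondrial covariate it was −1.68 (0.490) and 0.91 (0.547). Reep3 and Reep6 themselves were not called, with log2 fold changes of −0.11 and 0.13.

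Beyond the 10 genes, 61 other genes of ER shape and Nogo binding were listed by role, of which 54 were tested. Of these 2 rose and 5 fell, or 13.0% called against 17.0% of all tested genes, with a median log2 fold change of −0.07. With library totals 0 were higher and 6 lower, and the genes that rose lost their calls (Arl6ip5 log2 fold change 0.43, adjusted p = 0.188; Gramd1a 0.64, adjusted p = 0.0622). The count was 1, 2 and 15 without Nogo-/- 1, 2 and 4 and 1 and 0 without WT 2 and 4, so it rests on the libraries used. With the mitochondrial share as a covariate, or with Nogo-/- 4 alone against WT, 0 were called.

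Among 15 tested genes of tubules and junctions, 1 rose and 1 fell. Arl6ip5, a PRA1-family protein of the ER membrane, rose to 44.2 ± 4.17 CPM in Nogo-/- against 29.3 ± 4.24 CPM in WT (log2 fold change 0.60 ± 0.18 SE, edgeR adjusted p = 0.0424). Mctp2, a membrane-anchored C2-domain protein, fell to 5.44 ± 0.546 CPM in Nogo-/- against 11.3 ± 3.14 CPM in WT (−1.05 ± 0.25 SE, edgeR adjusted p = 0.0199). In both genes the groups did not overlap. Without Nogo-/- 1 or 2, or without WT 2 or 4, the adjusted p was 0.0955 to 0.185 for Arl6ip5 and 0.0598 to 0.0905 for Mctp2. The median of this list was 0.07, and it held Lnpk, which stabilises junctions, at 2.81 CPM in Nogo-/- and 2.66 CPM in WT (log2 fold change 0.08, edgeR adjusted p = 0.863).

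In the list of sheets and nuclear envelope, 1 of 7 tested genes fell and 0 rose (median −0.08). The called gene was Lbr, an inner nuclear membrane protein that is also a sterol reductase, at 3.96 ± 0.617 CPM in Nogo-/- and 7.19 ± 1.06 CPM in WT (log2 fold change −0.86 ± 0.24 SE, edgeR adjusted p = 0.0355). Of 9 tested genes of ER-phagy, 1 fell and 0 rose (median −0.15). Retreg2, a reticulon-homology protein of the FAM134 family, fell to 62.2, 120 and 108 CPM in Nogo-/- 1, 2 and 4 against 171, 190 and 171 CPM in WT 2, 4 and 11 (−0.88 ± 0.24 SE, edgeR adjusted p = 0.0323). Nogo-/- 1, with the largest mitochondrial share of 28.6%, was the lowest. With that share as a covariate the log2 fold change of Retreg2 was −0.25 (edgeR adjusted p = 0.845) and that of Lbr −0.53 (0.709). That fit cannot separate the share from genotype, and the part of the share in these levels was not tested beyond this. Lbr lost its call without Nogo-/- 1 or 2 and without WT 2 or 4 (adjusted p = 0.0710 to 0.145), and Retreg2 without Nogo-/- 1 and without any WT library (0.0626 to 0.107). Dnah14, on the opposite strand, overlaps 9.2% of the Lbr exons, so part of the Lbr counts cannot be assigned by strand. An rRNA gene on the same strand, Gm26004, overlaps 1.4% of them.

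Among 15 tested genes of membrane contact sites, 1 rose and 2 fell (median −0.13). Stim1, the ER calcium sensor that gates calcium entry, fell to 10.1, 13.4 and 17.6 CPM in Nogo-/- 1, 2 and 4 against 27.6, 30.8 and 24.6 CPM in WT (log2 fold change −1.01 ± 0.22 SE, edgeR adjusted p = 0.0153). Rmdn3, a tether between ER and mitochondria, fell to 14.0, 24.4 and 31.3 CPM in Nogo-/- 1, 2 and 4 against 53.2, 48.3 and 47.8 CPM in WT (−1.10 ± 0.26 SE, edgeR adjusted p = 0.0195). Both were lowest in Nogo-/- 1 and highest in Nogo-/- 4, the reverse of the order of the mitochondrial share. With that share as a covariate their log2 fold changes were −0.40 (edgeR adjusted p = 0.682) and −0.25 (0.806). That fit cannot separate the share from genotype, and the part of the share in these levels was not tested beyond this. Gramd1a, which moves cholesterol from the plasma membrane to the ER, rose to 18.6 ± 4.83 CPM in Nogo-/- against 10.3 ± 0.773 CPM in WT (0.84 ± 0.22 SE, edgeR adjusted p = 0.0261), and with the covariate its log2 fold change was 0.35 (0.742). Stim1 lost its call without Nogo-/- 1 or 2 or WT 4 (adjusted p = 0.0508 to 0.0625), Rmdn3 without Nogo-/- 2 or WT 2 or 4 (0.0575 to 0.0593), and Gramd1a without Nogo-/- 1 or any WT library (0.0704 to 0.0939). Other annotated genes overlap 12.1% of the exons of Rmdn3 and 8.0% of those of Gramd1a, whose reads cannot be assigned by strand.

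Of 8 tested Nogo receptors and partners, 0 rose and 0 fell by edgeR (median −0.17), and 1 of them, Pirb, had an unadjusted p under 0.05. Pirb passed in 0 of 17 alternatives, DESeq2 and limma-voom included, and Ngfr in 0 of the 16 that tested it. The pair with the smallest p were Pirb, a Nogo receptor of myeloid cells, at 3.34 CPM in Nogo-/- and 2.02 CPM in WT (log2 fold change 0.72, adjusted p = 0.131), and Ngfr, a co-receptor, at 0.672 CPM in Nogo-/- and 1.24 CPM in WT (−0.86, adjusted p = 0.214). Of the 50-base stretches of Pirb, 34.0% also occur in other genes. The Nogo receptor gene Rtn4r had 0 counts in every library, which is under the floor of 3 counts and does not show that it is absent.

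**Figure D5:**
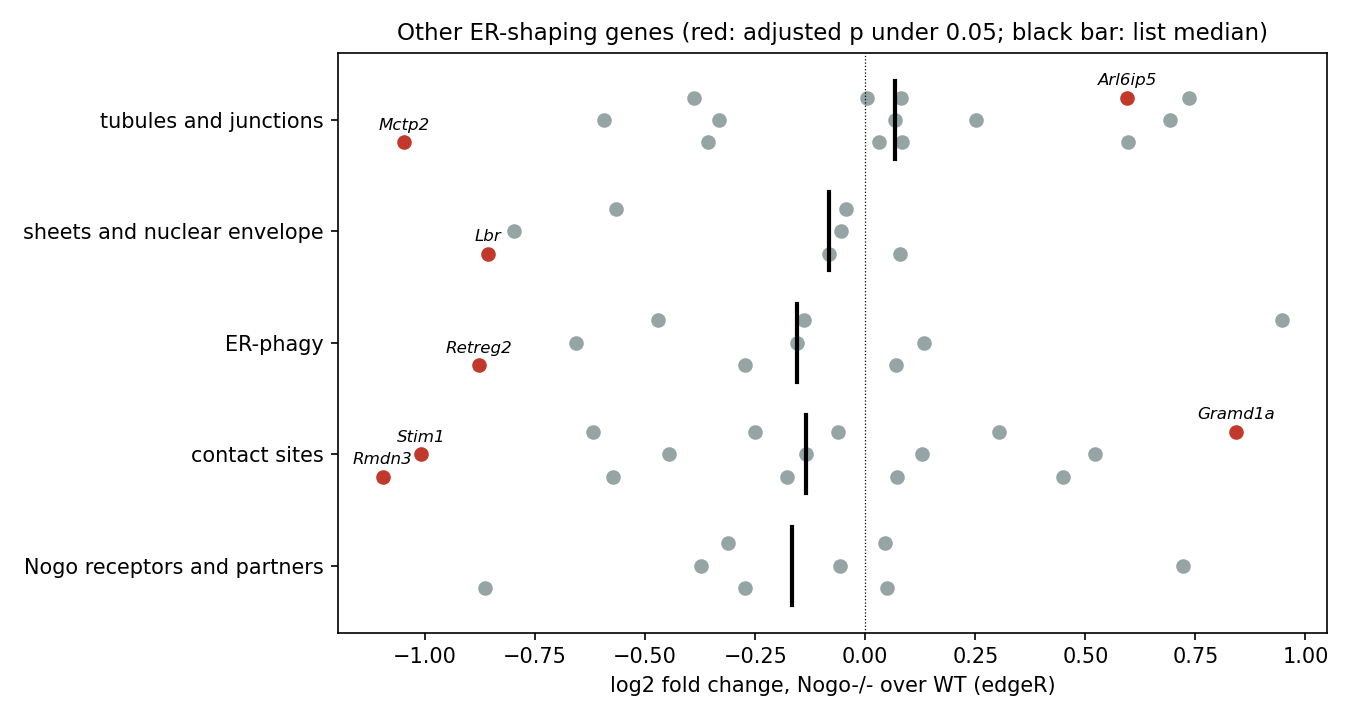
Log2 fold change, Nogo-/- over WT (horizontal axis), of the 54 tested genes in 5 lists (rows), with called genes in red and the list median as a black bar. The list medians lie between −0.17 and 0.07, and the 7 called genes are 5 to the left of 0 and 2 to the right.

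Some markers of other liver cells also differed between the groups, where 8.29% of all tested genes were called lower and 8.76% higher. Of 5 sinusoidal endothelial markers 4 fell and 0 rose, and their sum was 75.9 to 117 CPM in Nogo-/- and 130 to 163 CPM in WT. Of 5 tested lymphocyte markers 3 rose and 0 fell, with sums of 10.3 to 18.8 CPM in Nogo-/- and 4.21 to 5.67 CPM in WT, and both tested neutrophil markers rose. Of cholangiocyte markers 1 of 5 fell, of erythroid markers 1 of 3 fell, of dendritic cell markers 1 of 3 tested rose, and the 1 tested muscle marker was not called. A call of 1 among 3 or 5 markers does not set a cell type apart from the shares over all tested genes. Kupffer and stellate cell marker sums overlapped between the groups. The part of these cells in the levels of Rtn4, Atl3 and Atl2 was not tested.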

How the data were processed

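The file deposited by the authors holds raw counts, whole numbers without normalization, with 1 row per gene and 1 column per liver. Per the labels' protocols, total RNA was taken with a Qiagen RNeasy kit and made into SMARTer mRNA-Seq libraries. The submitters' processing notes name mm10 as the build. The labels name no aligner, counting program, annotation or strandedness. Of 54232 identifiers, 54165 were found in GENCODE M21, which supplied coordinates and lengths. Promoter sequences came from RefSeq (GRCm38.p6).

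Counts were fitted in R 4.3.3 with edgeR 4.0.16 (TMM, filterByExpr, quasi-likelihood F test, two-sided, no covariate), which kept 13304 genes. Of the 17 alternatives, which also changed the scaling, the filter and the libraries, 1 used DESeq2 1.42.0 and 1 limma-voom (limma 3.58.1). SE is the absolute log2 fold change over the square root of F. Libraries of 1 genotype differed by more than sampling noise (chi-square of 21.0 or more per degree of freedom), so none was taken for a second deposit of another, which does not show that they are independent. The genes and lists were chosen with earlier results of these data known. Named were all 10 members, the called genes of each list (the 2 with the smallest p where none was called), called genes within 500 kb of Rtn4 and the neighbours of Atl3 and Rtn3. Eml6, the other genes near Rtn4, Jmjd1c, Pcsk4, Rtn4r and Lnpk were chosen after their values were seen.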

Additional observations from a re-analysis of the deposited data

How the results depend on the processing

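With Nogo-/- 4 alone against WT, where only WT supplies the spread, edgeR called 25 genes in all, 1 of the group (Rtn4) and 0 of the 54 other ER genes (6 at an unadjusted p under 0.05). With the mitochondrial share as a covariate it called 0 genes in all (1146 unadjusted), 0 of the group (2 unadjusted) and 0 of the other ER genes (1 unadjusted). The share was 11.8% to 28.6% in Nogo-/- and 6.17% to 6.90% in WT, so this fit cannot separate it from genotype. Without a filter on low counts, 11 of the other ER genes were called. Leaving out 1 library gave 630 to 4046 called genes in all, 2 to 3 of the group and 0 to 15 of the other ER genes, the 0 arising without WT 4 (10 unadjusted). The log2 fold change turned to 0.0867 in Rtn1 and 0.226 in Pla2g16 with the mitochondrial covariate and to −0.0545 in Reep6 with library totals. In Arl6ip1 it turned to −0.134 with library totals, −0.0189 without a filter, −0.0188 with Nogo-/- 4 alone and −0.00997 with the replicate block, and it ran from −0.0628 to 0.0834 when 1 library was left out. None of these reversed values was called. With the longest coding transcript as length, a choice made after seeing the data, the Rtn4 share of the reticulons was 5.16% in Nogo-/- and 34.7% in WT. It was 2.88% to 3.86% in Nogo-/- and 24.2% to 28.5% in WT when 1 library was left out. Numbers 2 and 4 occur in both genotypes, and the deviations of these library pairs correlated at −0.05 and 0.06 across genes. The deviations were taken from the mean of each group, so 2 such values cannot show whether the pairs share more than a number. The replicate block gave 1686 called genes in all, 2 of the group and 4 of the other ER genes. The causes of these shifts were not tested. At this depth Rtn1 and Rtn2 allow no firm statement.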
